A study of Mus musculus with 16 samples.

Results

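The 2 mature miRNAs of the mouse miR-342 hairpin, mmu-miR-342-5p and mmu-miR-342-3p, were followed in dendritic cells grown from bone marrow and treated with quercetin, lipopolysaccharide or both. They are 2 of the 1377 miRNA names in the count table, and they were chosen by their measured values: both arms were lower in the libraries with quercetin. Their quercetin comparisons are therefore given as a description with no test. Their response to lipopolysaccharide and the balance between the arms across it, each within cells with or without quercetin, were not used in the choice and were tested. How that response differed between cells with and without quercetin rests on the quercetin comparisons and is a description. Both arms passed the filter on low counts, which kept 568 miRNAs.

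Small RNA libraries came from 4 groups of 4, each group holding 1 library from each of 4 wild-type male C57BL/6 mice. Mice 1 to 3 were 8 weeks old and mouse 4 was 7 weeks old, per the labels. Marrow was depleted of red blood cells with a lysing buffer and cultured as dendritic cells, the antigen-presenting cells that prime T cells. Control cells received no stimulation. The LPS group received lipopolysaccharide, a cell wall component of Gram-negative bacteria which cells sense through TLR4. The dose was 1 µg/mL and the exposure 6 h, on day 8. The quercetin group received quercetin aglycone, a flavonol found in many plant foods, at 25 µM on day 5 and day 7. The quercetin plus LPS group received both. Quercetin was thus added during the culture, before the day of LPS.

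A microRNA hairpin is cut into a duplex of a 5p and a 3p arm, and the arm that is loaded into an Argonaute protein guides it to messenger RNAs that pair with its seed, bases 2 to 8. The other arm is usually degraded and is the rarer of the pair in sequencing. In the mouse, miR-342 lies in an intron of Evl, a gene of the Ena/VASP family that regulates actin filaments. The hairpin is known from blood cells: it is activated by PU.1, the transcription factor of myeloid cells, and it accumulates when promyelocytic leukaemia cells differentiate in retinoic acid. In macrophages miR-342-5p has been linked to Akt1 and to the control of sterol synthesis by interferon.

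The sequences of both arms and of the hairpin are shown because all values below rest on telling one arm from the other. They are those of RefSeq on GRCm38.p6, where the hairpin lies on the + strand at chr12:108658620-108658718. The deposited table holds names alone and the submitters' processing notes name the build mm9, so these coordinates are not those of the submitters' build. Each sequence runs 5′ to 3′. In the mature arms the capitals mark the seed, and in the hairpin they mark the arms themselves.
miR-342-5p: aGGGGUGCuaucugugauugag
miR-342-3p: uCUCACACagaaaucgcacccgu
hairpin: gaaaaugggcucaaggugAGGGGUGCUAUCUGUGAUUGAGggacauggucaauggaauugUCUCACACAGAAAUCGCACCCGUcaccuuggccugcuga

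The 5p arm is 22 bases long (chr12:108658638-108658659) and the 3p arm 23 bases (chr12:108658680-108658702), with 20 bases between them. In the structure of lowest predicted energy, -46.8 kcal/mol, the arms form 17 base pairs with each other. Neither seed is shared with another of the 1738 mature sequences in the RefSeq table, so neither arm belongs to a seed family there. The hairpin sits in intron 3 of 4 annotated Evl transcripts (Evl-201, Evl-202, Evl-203 and Evl-206) and in intron 4 of Evl-204, on the strand of the gene.

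Library totals ran from 6459654 to 13949915 counts and were lower with quercetin (7698774 to 8572734, and 6459654 to 9041030 with LPS) than without (8668512 to 12535228 in controls and 10105690 to 13949915 after LPS). Levels below are in CPM, counts scaled to library size with TMM factors, which set libraries on a common scale by the bulk of their miRNAs. Control 3 deviated from the mean of its group with the other libraries of mouse 4 (r 0.47 to 0.67) rather than its own (-0.47 to -0.17). For control 4 the match with mouse 3 was partial (r 0.02 to 0.54, and 0.39 with quercetin plus LPS 2), against -0.32 to -0.15 with its own mouse. Results that use the controls were therefore also computed without control 3 and control 4. Counts of mice below follow the labels. All 8 myeloid and dendritic miRNAs listed were tested, with a summed level of 172848 to 320102 CPM per library, most of it miR-21a-5p (group means 125400 to 157160 CPM), which many cell types express. The myeloid miR-223-3p had group means of 1799 to 2417 CPM and miR-511-3p, an intronic miRNA of a macrophage mannose receptor gene, 27.5 to 42.5 CPM. No member of the marker lists was at 0 in all libraries.

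miR-342-5p, the rarer arm, stood at 43.9, 74.7, 76.0 and 60.3 CPM in control libraries 1 to 4, from 567, 728, 605 and 697 counts. After LPS it was at 42.0, 43.5, 47.7 and 54.0 CPM. With quercetin it was at 20.8, 14.2, 18.5 and 18.1 CPM, from 169, 136, 163 and 151 counts. With quercetin plus LPS the values were 17.2, 14.4, 15.6 and 11.6 CPM, the last from 86 counts, the fewest behind any value of either arm. All 8 libraries with quercetin lay below all 8 without it. The group means in order were 63.7 ± 15.03 CPM in controls, 46.8 ± 5.36 after LPS, 17.9 ± 2.72 with quercetin and 14.7 ± 2.38 with both (SD, n = 4). Control overlapped LPS and quercetin overlapped quercetin plus LPS, while LPS and quercetin, the neighbours in the middle of that order, did not overlap.

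miR-342-3p was the abundant arm and held ranks 50 to 60 among the miRNAs of each control library. It stood at 1129, 1439, 1854 and 1421 CPM in control libraries 1 to 4. After LPS the values were 1620, 2353, 1320 and 1751 CPM, spread over and beyond the control range. With quercetin they were 637, 837, 1009 and 864 CPM, below every control. With quercetin plus LPS they were 421, 504, 648 and 417 CPM, and the highest of these just overlapped the lowest quercetin library. The order of the means differed from that of the 5p arm in its first places: 1761 ± 434 CPM after LPS, 1461 ± 298 in controls, 837 ± 153 with quercetin and 498 ± 108 with both (SD, n = 4). LPS and control overlapped, control and quercetin did not, and quercetin overlapped quercetin plus LPS by 1 library. The plot of both arms by library shows these steps.

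**Figure D1:**
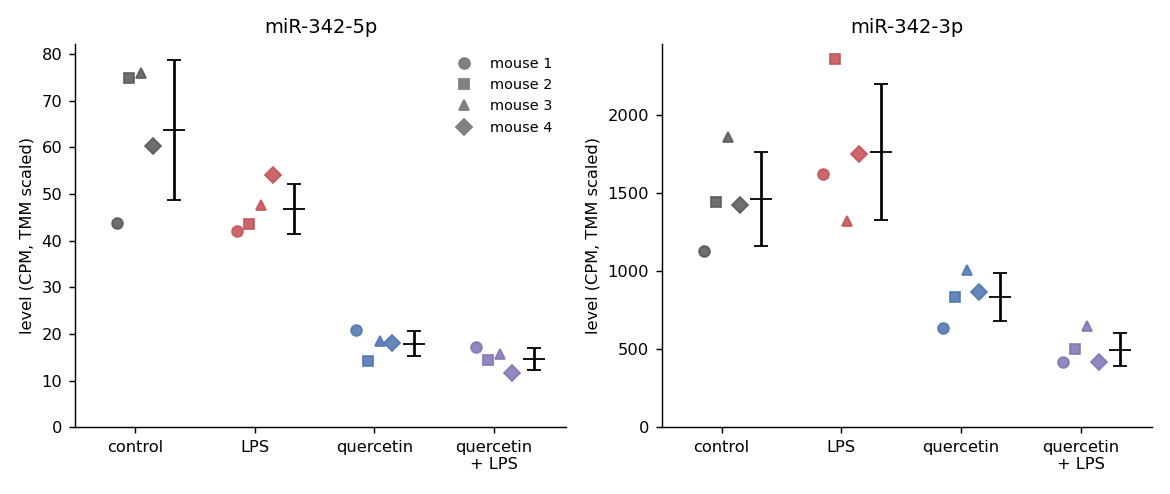
Level of miR-342-5p (left) and miR-342-3p (right) in CPM with TMM scaling, on linear axes from 0, in 4 libraries per group. Marker shapes give the mouse, and bars beside them the mean ± SD. All libraries with quercetin lie below all without it for both arms, at 11.6 to 20.8 against 42.0 to 76.0 CPM for 5p and 417 to 1009 against 1129 to 2353 CPM for 3p.

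The quercetin comparisons, which chose the pair, had these sizes. Without LPS, miR-342-5p was at 28.1% of its control level, a log2 difference of -1.83 ± 0.22 (SE), and miR-342-3p was at 57.3% (-0.80 ± 0.23). With LPS in both groups, miR-342-5p was at 31.4% of the LPS level (-1.67 ± 0.22) and miR-342-3p at 28.3% (-1.82 ± 0.24). Each of these 4 differences was negative in 4 of 4 mice. Without control 3 and control 4 the differences from control were -1.70 ± 0.26 for 5p and -0.60 ± 0.27 for 3p.

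Against the whole table, 8.98% of the 568 tested miRNAs were called lower in quercetin vs control and 14.3% in quercetin plus LPS vs LPS, by edgeR at an adjusted p of 0.05. Called lower in both were 6.87%, the class in which both arms of miR-342 fall by the choice made. Groups that did not overlap, with quercetin lower, were found for 11.1% and 13.4% of miRNAs. By size of log2 difference from the lowest, the 5p arm was number 18 and the 3p arm number 83 in quercetin vs control. They were numbers 39 and 29 in quercetin plus LPS vs LPS. The middle miRNA of the table stood at -0.05 and -0.13 in these comparisons under TMM scaling, and at 0.15 and 0.14 under upper quartile scaling. That scaling also turned the balance of calls, from 39 higher and 51 lower to 48 and 29 in the first comparison and from 49 and 81 to 71 and 54 in the second, while both arms of miR-342 stayed below 0.

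LPS alone moved neither arm past the threshold. miR-342-5p differed by -0.44 ± 0.21 on the log2 scale (adjusted p = 0.965 by edgeR, unadjusted 0.0508) and was lower after LPS in 4 of 4 mice, although the groups overlapped. miR-342-3p differed by 0.27 ± 0.23 (adjusted p = 0.999) and was higher in 3 of 4 mice, with overlapping groups. That value moved with single libraries, to 0.05 without LPS 2 and 0.14 without control 1, and was 0.47 without controls 3 and 4. In this comparison 0.528% of miRNAs passed, all 3 of them higher, and 4.58% had an unadjusted p under 0.05.

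In cells grown with quercetin, neither arm passed after LPS. The larger difference was that of miR-342-3p, -0.75 ± 0.23 (edgeR unadjusted p = 0.00517, adjusted p = 0.367), with lower values in 4 of 4 mice. miR-342-5p differed by -0.28 ± 0.21 (adjusted p = 0.709) and was lower in 3 of 4. Its value came to -0.03 without quercetin plus LPS 4, -0.06 without quercetin 1, and -0.15 to -0.14 without quercetin 3, quercetin 4 or quercetin plus LPS 2. The middle miRNA of the table moved as well, from -0.06 to 0.07 without quercetin plus LPS 4 and to 0.08 without quercetin 1. Other scalings, filters and fits that kept every library of both groups gave -0.29 to -0.17 for miR-342-5p. In this comparison 0.352% of miRNAs passed, both higher, and 7.22% had an unadjusted p under 0.05.

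The LPS effects with and without quercetin were compared by their difference, tested over all miRNAs. For the miR-342 arms it equals the difference between the quercetin contrasts, which chose them, so it is given as a description. It was -1.02 ± 0.33 on the log2 scale for miR-342-3p and 0.16 ± 0.30 for miR-342-5p. The first was -0.68 without LPS 2. The second ran from 0.20 to 0.46 without single libraries, always above its main value and highest without control 1. With all libraries kept, the second was 0.27 by DESeq2, 0.31 with library sizes alone and 0.13 by limma-voom, so it moved with the scaling and fit too. No miRNA passed this test in edgeR (0% of 568), DESeq2 or limma-voom, and 4.58% had an unadjusted p under 0.05 in edgeR. For comparison with a miRNA known to answer TLR4, miR-155-3p, the minor arm of the miR-155 hairpin, rose with LPS from 139 ± 57.6 to 556 ± 186 CPM without quercetin and from 46.9 ± 7.14 to 231 ± 90.1 CPM with it (SD, n = 4). These were log2 changes of 2.00 ± 0.35 (edgeR adjusted p = 0.0106) and 2.30 ± 0.35 (adjusted p = 0.00168). In cells without quercetin it no longer passed when control 1, control 3, control 4, LPS 1 or LPS 2 was left out (adjusted p = 0.0503 to 0.0738), nor without controls 3 and 4 together (1.60 ± 0.41, adjusted p = 0.346). Its other arm, miR-155-5p, the abundant guide, differed by 0.46 ± 0.30 and 0.31 ± 0.30 and did not pass either time.

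The ratio of the arms within a library needs no scaling between libraries, and the arms are of nearly equal length. On the log2 scale 5p over 3p stood at -4.69, -4.27, -4.61 and -4.56 in control libraries 1 to 4, which is 19.3 to 25.7 counts of 3p per count of 5p. After LPS it was -5.27, -5.76, -4.79 and -5.02, all below every control. With quercetin it was -4.94, -5.88, -5.77 and -5.57, also below every control, at 30.6 to 58.8 counts of 3p per count of 5p. With quercetin plus LPS it was -4.61, -5.13, -5.37 and -5.17, and the ratios overlapped those of quercetin and of LPS. In controls the 5p arm made up 4.17% ± 0.529 of the counts of both arms, and in quercetin libraries 2.17% ± 0.678 (SD, n = 4).

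**Figure D2:**
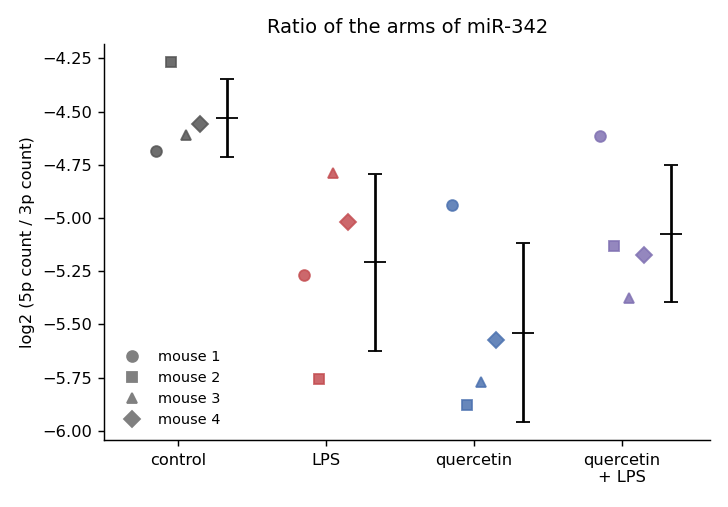
Log2 of the 5p count over the 3p count of miR-342 in each library, by group, with marker shapes for the mouse and bars for the mean ± SD of 4 libraries. Controls run from -4.69 to -4.27, and of the other libraries only quercetin plus LPS 1, at -4.61, lies among them; LPS, quercetin, and quercetin plus LPS libraries reach down to -5.76, -5.88 and -5.37.

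After LPS alone the ratio was lower by 0.68 on the log2 scale (-4.53 ± 0.18 in controls and -5.21 ± 0.41 after LPS, SD, n = 4), in 4 of 4 mice. The exact two-sided permutation p was 0.0286, the smallest that 4 against 4 can give, and 0.0571 after adjustment over the 2 ratio tests planned. That adjusted value could have been lower only if the other ratio test had also reached its smallest p. A limma fit to the ratios of all 150 hairpins with both arms tested gave an unadjusted p of 0.0285 and an adjusted p of 0.856. No hairpin passed that fit (0% of 150), 4.67% had an unadjusted p under 0.05, and in 4.67% the groups did not overlap.

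In quercetin-grown cells LPS went with a higher ratio, by 0.47 (-5.54 ± 0.42 without LPS and -5.07 ± 0.32 with it, SD, n = 4). This was seen in 4 of 4 mice, the groups overlapped, and the exact permutation p was 0.143. By limma the adjusted p was 0.519, and 0.667% of hairpins passed. The difference between these LPS effects was 1.14 on the log2 scale and positive in each mouse (0.90, 2.24, 0.58 and 0.86 in mice 1 to 4). This difference was noticed in the ratios and is equal to that between the quercetin contrasts, which chose the arms, so it is given as a description. With the mice paired, 2 of 16 sign patterns were as extreme, the fewest 4 mice allow, which cannot reach the threshold. Across the 150 hairpins by limma the difference was 1.15 ± 0.40 (SE). There 0% of hairpins passed and 3.33% had an unadjusted p under 0.05.

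Quercetin alone went with a ratio lower by 1.01, in 4 of 4 mice, and such separation of the groups was seen in 14% of hairpins. When both groups had LPS the ratio differed by 0.13, with 2 mice lower and 2 higher. These values come from the contrasts that chose the arms and carry no test. Among the 150 hairpins the 5p minus 3p difference of the fitted quercetin vs control log2 values was -1.03 for miR-342, number 11 from the lowest, where the middle hairpin stood at -0.10 with quartiles of -0.56 and 0.26. In quercetin plus LPS vs LPS miR-342 was at 0.15, number 82, close to the middle hairpin at 0.08.

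Hairpins whose arms were both called lower with quercetin made up 4.67% of the 150 without LPS and 7.33% with LPS, and 4% in both comparisons. The last are 6 hairpins: miR-212, miR-132, miR-342, miR-222, miR-34c and miR-27a, ordered by the mean of their 4 log2 differences (-2.92, -2.005, -1.53, -1.32, -1.14 and -0.99). miR-132 and miR-212 are neighbours in one cluster and depend on the factor CREB in neurons. For miR-132 the differences were -1.99 (5p) and -1.85 (3p) without LPS and -2.17 and -2.02 with it, so its arms moved by similar amounts in both settings. For miR-342 the arms lay 1.03 apart without LPS and 0.15 apart with it. These hairpins were picked by their values and no test is attached to them.

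**Figure D3:**
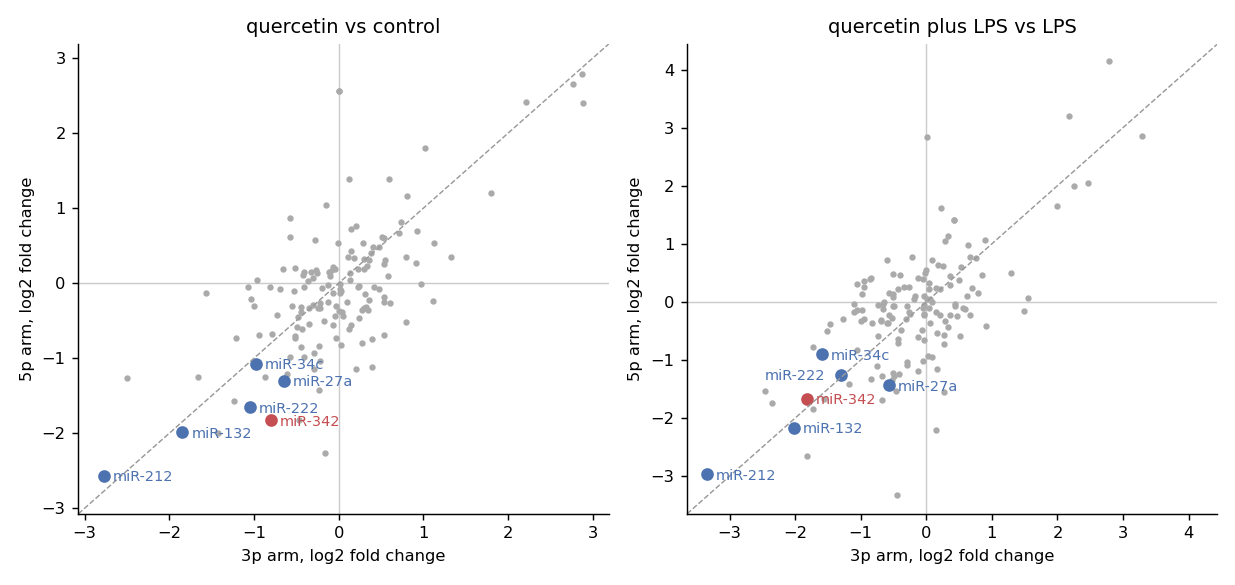
Log2 fold change of the 5p arm (vertical) against that of the 3p arm (horizontal) for 150 hairpins with both arms tested, in quercetin vs control (left) and quercetin plus LPS vs LPS (right); the dashed line marks equal change. miR-342, in red, lies below the line at -0.80 (3p) and -1.83 (5p) on the left and near it at -1.82 and -1.67 on the right, and the other 5 hairpins called lower in all 4 values are in blue.

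The miRNAs whose profile over the 16 libraries was most like each arm were taken by the root-mean-square difference of log2 CPM, each centred on its own mean, among 310 others with a mean of at least 10 CPM. For miR-342-5p the nearest was miR-132-3p (0.32), followed by miR-146b-3p (0.37), miR-132-5p (0.41), miR-5099 (0.43) and miR-664-5p (0.43), where the middle of the 310 stood at 0.97. Its own sister arm came 7th, at 0.47. For miR-342-3p the nearest were miR-877-3p (0.34), miR-664-5p (0.35), miR-322-3p (0.38), miR-5099 (0.39) and miR-146b-3p (0.41), with the middle at 0.84. miR-342-5p came 11th in that order. These likenesses are a description over 16 libraries that share scaling, depth and treatment, and 3 miRNAs stand in both lists.

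The 7 miRNAs named all had lower means in both groups with quercetin than in both without. That follows from picking them for likeness to arms that fall with quercetin, so it is no separate result. miR-132-3p, a miRNA of the CREB-dependent cluster, lay at a higher level than miR-342-5p: 1326 ± 501 CPM in controls, 1266 ± 332 after LPS, 368 ± 59.5 with quercetin and 313 ± 21.4 with both (SD, n = 4). miR-664-5p, at 93.2 ± 29.2, 82.8 ± 9.40, 52.7 ± 5.15 and 36.3 ± 3.23 CPM in the same order, was lower again with both treatments than with quercetin, as miR-342-3p was. miR-322-3p stood at 96.9 ± 9.14, 98.8 ± 15.7, 67.7 ± 10.6 and 49.4 ± 6.19 CPM, with the same ordering of the quercetin groups.

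**Figure D4:**
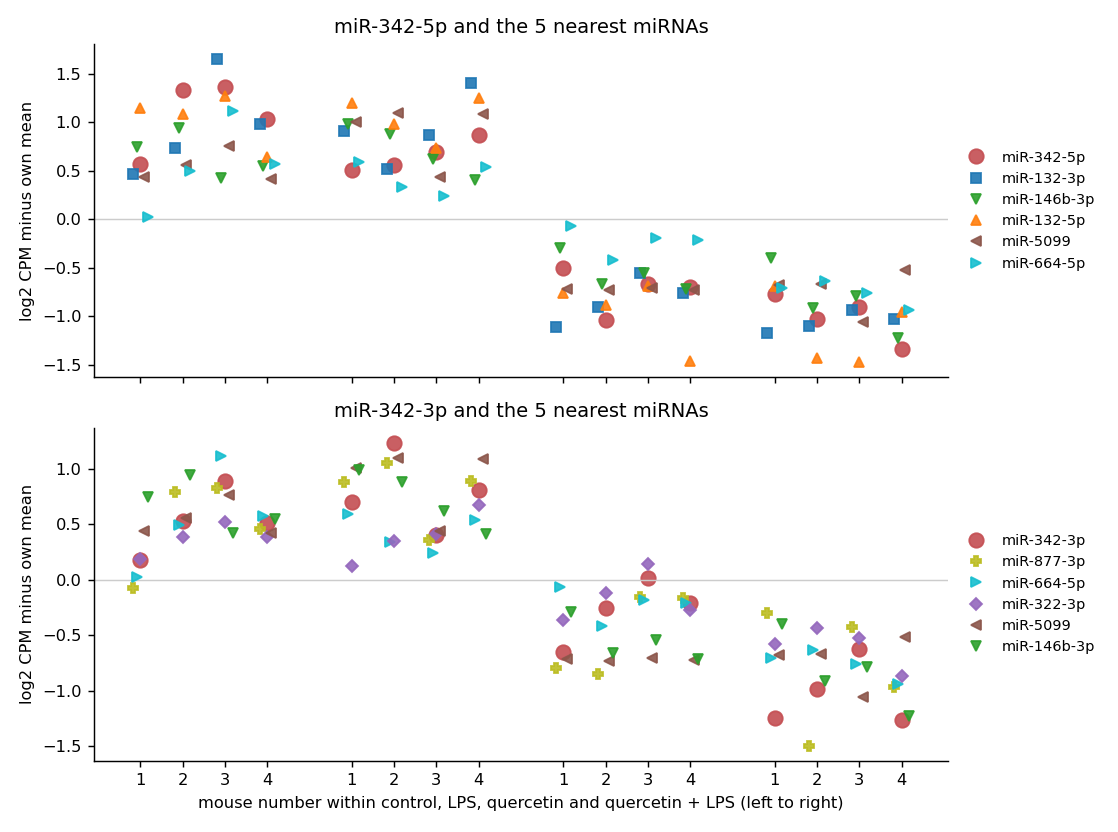
Log2 CPM minus each miRNA's own mean over 16 libraries, for miR-342-5p (top) and miR-342-3p (bottom) in red with the 5 miRNAs nearest to each; from left to right the sets of 4 are control, LPS, quercetin and quercetin plus LPS, by mouse. Both arms lie above 0 in all libraries without quercetin, and of the libraries with quercetin only the 3p arm in quercetin 3 reaches 0.

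Hairpins described as activated by PU.1 in macrophages (miR-146a, miR-155, miR-338 and miR-342) did not all move together. Of the list's 8 arms 7 were tested; 3 were lower in each quercetin comparison (over all miRNAs 8.98% and 14.3%) and none higher, and 2 of those 3 are the arms of miR-342 itself. The other was miR-155-3p, with -1.56 ± 0.34 (edgeR adjusted p = 0.00587) and, with LPS, -1.26 ± 0.34 (adjusted p = 0.0147). The call with LPS was lost without LPS 1, LPS 2 or quercetin plus LPS 2, 3 or 4 (-1.11 to -0.85). It was also lost with upper quartile scaling (-0.92) and with only the 2 groups fitted (-1.08). miR-146a-5p, a brake on TLR signalling, differed by -0.75 ± 0.64 and -0.90 ± 0.64, miR-155-5p by -0.14 ± 0.30 and -0.29 ± 0.30, miR-338-3p by -0.37 ± 0.31 and 0.04 ± 0.31, and miR-338-5p by 0.03 ± 0.29 and 0.23 ± 0.29. None of these passed. Without miR-342 the list's median was -0.37 and -0.29.

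Of miRNAs reported to change when promyelocytic cells differentiate in retinoic acid, 19 of 22 were tested, the arms of miR-342 among them. In quercetin vs control 1 was higher and 5 lower (6.87% and 8.98% of all miRNAs), and in quercetin plus LPS vs LPS 3 were higher and 4 lower (8.63% and 14.3%). Among the 3 higher, let-7a-1-3p and let-7c-2-3p have identical counts and are 1 signal. Both arms of miR-342, chosen because they fall with quercetin, are among the lower in each comparison, so those counts are not independent of the choice. The medians were -0.24 and 0.01, and -0.20 and 0.04 without miR-342. The directions of the reported changes were not used. Beside miR-342, miR-181b-1-3p was lower in both (-2.21 ± 0.34 and -1.37 ± 0.34). The more abundant miR-181b-5p was lower with LPS (-0.79 ± 0.25, edgeR adjusted p = 0.0344) and did not pass without it (-0.65 ± 0.25). let-7c-5p, a differentiation-linked let-7 member, was higher in both (0.97 ± 0.27 and 0.99 ± 0.27, edgeR adjusted p = 0.0220 and 0.0159). let-7c-1-3p, a rare 3p arm of a let-7c hairpin, was lower without LPS (-1.45 ± 0.43, edgeR adjusted p = 0.0292) and differed by -0.91 ± 0.47 with it. Its level was very low, at 1.70 ± 0.75 CPM in controls and 0.60 ± 0.18 CPM with quercetin (mean ± SD). The call with LPS on miR-181b-1-3p was lost without LPS 4 (-0.94, adjusted p = 0.0526) and with only the 2 groups fitted (-1.22). That without LPS on let-7c-5p was lost without control 4 (0.97, adjusted p = 0.0572). miR-223-5p, an arm of the myeloid hairpin miR-223, was lower without LPS (-0.98 ± 0.26, adjusted p = 0.0188) and differed by 0.01 ± 0.26 with LPS. Its call was lost without control 2, control 3, quercetin 3 or quercetin 4 (-0.94 to -0.83). It was also lost without controls 3 and 4 together (-0.81) and with upper quartile scaling (-0.79). In neither LPS comparison did a member of this list pass.

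Markers of erythroid cells moved with quercetin as well, and their part in the miR-342 values was not tested. Of 6 erythroid miRNAs 5 were higher in each quercetin comparison, against 6.87% and 8.63% of all miRNAs. Among them miR-486a-5p and miR-486b-5p have identical counts, so their reads enter the sum under both names. The summed level was 776 to 1771 CPM in controls, 865 to 2798 after LPS, 5043 to 13119 with quercetin and 2343 to 5843 with both. miR-451a, the defining miRNA of red cells, was at 18.1 ± 4.94, 17.1 ± 1.47, 128 ± 33.2 and 140 ± 65.5 CPM in the same order (SD, n = 4). The highest erythroid sum was that of quercetin 1.

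The stromal, endothelial and epithelial list had 1 of 14 tested members higher in quercetin vs control and 5 of 14 in quercetin plus LPS vs LPS, against 6.87% and 8.63% of all miRNAs, so the first count is about the share of the whole table. Its sums were 488 to 888, 398 to 711, 747 to 1908 and 829 to 5214 CPM in the order above, the highest in quercetin plus LPS 2. Lymphocytes carry much miR-342 and miR-150. Their defining miRNA miR-150-5p stood at 670 ± 274, 648 ± 223, 664 ± 102 and 517 ± 119 CPM (SD, n = 4), a difference of -0.01 ± 0.31 in quercetin vs control. The lymphocyte list held 6 miRNAs, and some of them, such as miR-205-5p, are not specific to lymphocytes. In quercetin vs control 1 of the 6 was higher (miR-181c-5p, 0.73 ± 0.22, adjusted p = 0.0343 by edgeR) and none lower, against 6.87% of all miRNAs. That call was lost without any of control 2, 3 or 4 or quercetin 2, 3 or 4 (0.58 to 0.76). It was also lost without controls 3 and 4 together (0.84), without the filter (0.70) and with only the 2 groups fitted (0.71). None of the 6 passed in quercetin plus LPS vs LPS. Most of this list's summed level was miR-181a-5p (group means 92887 to 123827 CPM), so the sum says little about its other members. Among those, miR-205-5p had group means of only 0.59 to 2.19 CPM. Of the myeloid list 1 of 8, miR-223-5p, was lower in quercetin vs control, against 8.98% of all miRNAs, and none passed in quercetin plus LPS vs LPS. In these bulk libraries fewer cells of a type and less of a miRNA per cell cannot be told apart.

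**Figure D5:**
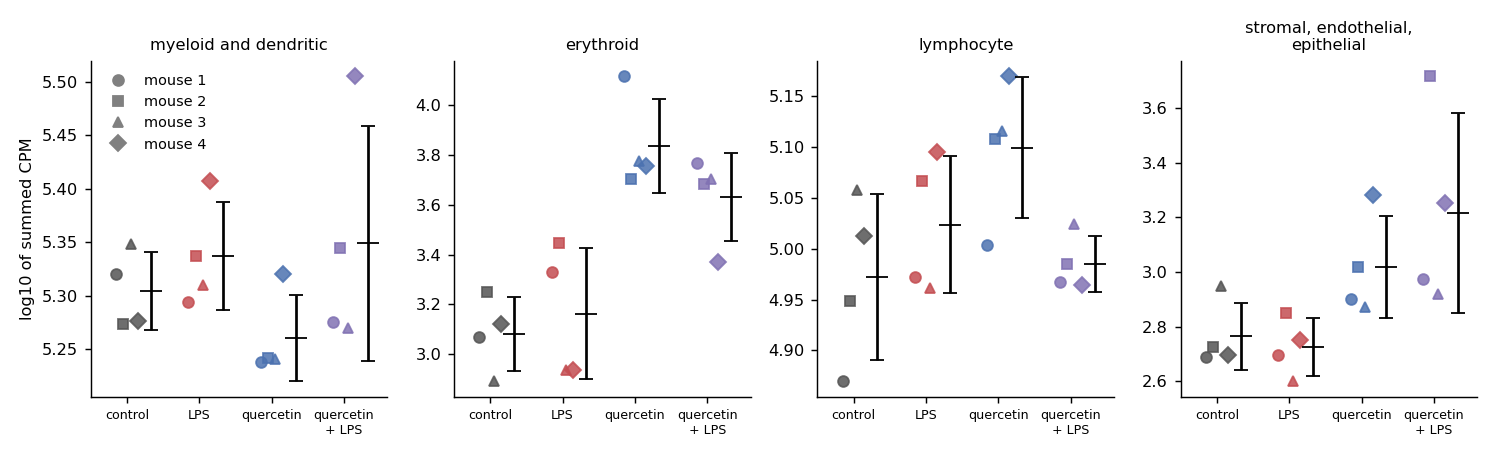
Log10 of the summed CPM of each list of cell type markers in each library, by group, with marker shapes for the mouse and bars for the mean ± SD of 4 libraries; vertical scales differ between panels. Erythroid sums are higher in all libraries with quercetin except that quercetin plus LPS 4, at 2343 CPM, lies below LPS 2, at 2798 CPM.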

How the data were processed

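The deposited table held counts of reads per mature miRNA, made by the authors and not normalised, for 16 small RNA libraries. The submitters' processing notes name cutadapt and the genome build mm9; the aligner and the counting rule are not given in the sources used here. The table had 1381 rows and 1377 names. Counts of 4 names on 2 rows each were summed, 1 row holding text was left out, and so were 4 rows whose counts looked exchanged between neighbours in the libraries with quercetin, which left 1372 names. The rows next to both arms of miR-342 showed no such exchange.

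Differences were tested with edgeR 4.0.16 under R 4.3.3. After filterByExpr with the groups given (568 miRNAs kept) and TMM scaling came 1 quasi-likelihood fit to all 16 libraries and Benjamini-Hochberg adjustment within each comparison at a threshold of 0.05. The standard error (SE) is the log2 difference divided by the square root of F. Ratios of arms were tested by exact two-sided permutation of libraries and, over 150 hairpins, with limma 3.58.1 on log2 of counts plus 0.5. Alternatives used DESeq2 1.42.0, limma-voom, other scalings and filters, and fits without each library. The fit was checked on simulated counts. The hairpin was folded with RNAfold 2.7.2.

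Mouse numbers in the labels mark the animal, since the series describes 4 mice, and so pair the libraries; the main fit does not use the pairing. Deviations from the group means correlated at a mean r of 0.14 over 24 same-mouse pairs (-0.47 to 0.65) and -0.04 over 72 other pairs. Within each group, every pair of libraries differed beyond sampling noise (chi-square of counts).

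The members and all lists were chosen with earlier results of these data known. Named were both arms, both arms of miR-155, the 5 miRNAs most like each arm, hairpins with both arms lower in both quercetin comparisons, all PU.1 list members and up to 4 members per other list. Added for their values or position were let-7c-5p, let-7c-1-3p, miR-181b-5p, miR-150-5p, miR-21a-5p, miR-511-3p and the miRNAs near the hairpin in the genome. Of the names deposited, 1159 matched a RefSeq mature sequence.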

Additional observations from a re-analysis of the deposited data

Results flagged for a closer look

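The ratio of the miR-342 arms moved in opposite directions with LPS in cells without and with quercetin. On the log2 scale 5p over 3p was 0.68 lower after LPS alone, lower in 4 of 4 mice, and 0.47 higher after LPS in quercetin-grown cells, higher in 4 of 4. The difference between these effects was 1.14. It was noticed in the ratios and no test of it planned beforehand exists, so it counts as not tested. With the mice paired, 2 of 16 sign patterns were as extreme, the fewest 4 mice allow, which cannot reach the threshold. By limma 0% of 150 hairpins passed on this difference. The 5p arm rested on 86 to 169 counts in the libraries with quercetin and on 447 to 728 in the others.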

How the results depend on the processing

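No miR-342 value changed sign. Both arms were lower with quercetin in 74 of 74 alternatives. These refit the comparisons that chose the arms, so the count is a description and no support for the fall. No alternative brought an LPS test of either arm past the threshold. The lowest adjusted p was 0.186 by edgeR, for miR-342-3p in quercetin plus LPS vs quercetin without quercetin plus LPS 3. In quercetin plus LPS vs LPS the 5p difference was -1.43 with upper quartile scaling, -1.40 with library sizes alone and -1.60 to -1.34 without single libraries. For 3p it was -1.50 with library sizes alone and -1.87 to -1.48 without single libraries. The cause was not tested. With the mouse as a replicate block the difference of LPS effects on the arm ratio, 1.14, had 2 of 16 sign patterns as extreme, the fewest possible. By limma over all hairpins that difference was 1.15, and no hairpin passed. Without single libraries it was 0.96 to 1.35. The block changed no call on either arm of miR-342, and gave 92 and 144 calls in the quercetin comparisons.

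Counts of calls moved more. In LPS vs control 3 became 1 with library sizes alone, 6 by DESeq2, 0 without control 3 and control 4, and 0 to 2 without single libraries. In quercetin plus LPS vs quercetin 2 became 4 by DESeq2 and 2 to 7 without single libraries. In quercetin vs control 90 became 55 at a mean of at least 10 CPM, 58 without control 3 and control 4, and 54 to 76 without single libraries. For quercetin plus LPS vs LPS 130 became 69 at a mean of at least 10 CPM, 70 with only the 2 groups fitted, and 80 to 133 without single libraries. There the split of 49 higher and 81 lower became 67 and 66 with DESeq2's size factors, 75 and 50 with library sizes alone and 81 and 77 by DESeq2. Of 829 alternatives for 45 other named calls, 737 kept the call and 92 lost it. The thinnest value of the 5p arm rests on 86 counts and that of the 3p arm on 3101.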

Other observations

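Around the hairpin, the next tested miRNAs on chromosome 12 of GRCm38 were those of miR-345, 178 kb further on. These were looked at for their position. miR-345-3p differed by 0.51 ± 0.28 on the log2 scale in quercetin vs control and 0.35 ± 0.28 in quercetin plus LPS vs LPS, and miR-345-5p by 0.62 ± 0.50 and -0.23 ± 0.50. None passed by edgeR (adjusted p = 0.253 to 0.802). Some 934 kb away begins the imprinted Dlk1-Dio3 cluster, where miR-127-5p was higher with quercetin (2.41 ± 0.67 and 2.84 ± 0.73, edgeR adjusted p = 0.0220 and 0.0124) from a low level of 0.675 CPM over all libraries. The more abundant miR-127-3p, at 14.01 CPM, did not pass (2.22 ± 1.76 and 0.01 ± 1.70, adjusted p = 0.454 and 0.996). Among the other members of that cluster looked at, some passed by edgeR, higher with quercetin, and others did not.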
